A study of Mus musculus with 3 samples.

Results

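The 38 genes described here encode heat shock proteins and co-chaperones, out of 32285 genes in the deposited matrices. They were chosen by name, and all 38 were found among the gene symbols of the files. By role they comprise 7 cytosolic members of the HSP70 and HSP110 families, 2 cytosolic HSP90 genes, 6 J-domain proteins and 6 HSP90 or HSP70 co-chaperones, which make 21 cytosolic members. A further 6 are small heat shock proteins, 5 act in the endoplasmic reticulum (ER), 4 act in mitochondria and 2 are heat shock transcription factors. Wild-type mice provided the vascular tissue, whose cells were sequenced in droplets so that each captured transcript 3' end carries a unique molecular identifier (UMI). There were 3 libraries, 1 per group, and the labels give 3 weeks for each. In 1 group mice had received vehicle (labelled control). In another they had received sunitinib, an inhibitor of receptor tyrosine kinases (labelled TKI). The remaining group received sunitinib together with Yoda1, an agonist of the stretch-opened cation channel PIEZO1, according to the series design, although its label names Yoda1 alone. Dose, sex, age and the number of animals per library are not given in the sources used here.

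Chaperones of the HSP70 family bind unfolded stretches of client proteins and release them in a cycle driven by ATP. J-domain proteins bring clients to HSP70 and start that cycle, and HSP110 proteins and BAG-domain proteins drive the exchange of nucleotide that ends it. HSP90 takes over clients such as kinases and steroid receptors with the help of its co-chaperones. Small heat shock proteins hold unfolding proteins without ATP and are abundant in muscle, where several of them bind actin filaments or filament-associated proteins. The ER and mitochondria have HSP70 and HSP90 proteins of their own. Under proteotoxic stress, heat shock factor 1 binds inverted repeats of the letters GAA upstream of many cytosolic and mitochondrial chaperone genes, whereas ER chaperones are induced mainly by the unfolded protein response.

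A barcode was taken as a cell if it held 500 or more UMIs and 300 or more genes, with mitochondrial UMIs not above 15%. Vehicle, sunitinib and sunitinib plus Yoda1 then had 3947, 4148 and 3130 cells. Smooth muscle cells were those in which Acta2, Tagln, Myh11 and Cnn1 held at least 2% of UMIs, and endothelial cells those with at least 3 of 5 endothelial markers, so the class names rest on these markers alone. There were 3595, 3796 and 64 smooth muscle cells and 150, 184 and 359 endothelial cells. The third library stood apart from the others. It held 1088 B cells and 729 T cells where the other libraries held 1 B cell each and no T cell, and red cell transcripts stood at 7243 CPM (counts scaled to a total of 1000000) in its smooth muscle and 39505 in its endothelium, against 8.51 or less in the other libraries. It was also processed with Cell Ranger 7.1.0, whereas 6.0.0 was used for the others, which cannot be told apart from the group. All 4 contractile markers were present in the smooth muscle of each library and all 5 endothelial markers in its endothelium. Levels of the endothelial markers in endothelium differed between sunitinib and the third library. Pecam1 stood at 3551 and 1278 CPM, Ptprb at 2752 and 1285 and Vwf at 970.2 and 293.4. Cdh5 went the other way, at 536.6 and 966.1 CPM, as did Egfl7, at 760.0 and 863.0. In smooth muscle the 5 macrophage markers summed to between 2.45 and 3.10 CPM, with Adgre1 at 0 in all 3 libraries, and the 5 fibroblast markers to between 408.7 and 473.9 CPM, most of it Col1a1. The cell barcodes shared between libraries numbered 3, 3 and 8. CPM values come from the UMIs of all cells of a class summed, relative to the total of that class. Because each group is 1 library, no difference below has a replicate check and no test was made. All intervals are exact 95% intervals that cover counting error only. A difference is called lower or higher where CPM differed at least 1.5-fold with at least 20 UMIs behind it, which is a rule of size.

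Sequence upstream of the start site was read for 31 of the 38 members in a RefSeq promoter table (GRCm38.p6). A motif of 2 heat shock units, GAANNTTC or TTCNNGAA, lay within 250 bases upstream of the start of 11 of these 31 members (35.5%), against 3932 of 27025 genes in the table (14.5%). The 2 motifs are palindromic, so both strands are covered, and a gene counts if any of its listed start sites has a match. A run of 3 units, in which GAA and TTC alternate with 2 bases between them and which contains the shorter motifs, was found on either strand in 3 members (9.68%) and in 139 genes of the table (0.514%). By role, the shorter motif occurred in 7 of 18 cytosolic members, 2 of 4 small heat shock genes, 2 of 3 mitochondrial members and 0 of 5 ER members. The matches of Hspd1 and Hspe1 are the same stretch of DNA, which is counted for both genes and for both motif lengths. Hspa1a and Hspa1b, with nearly the same upstream sequence, are also counted as 2 genes. The sites below are shown because they belong to the members with the largest differences between vehicle and sunitinib or carry 3 or more units. Hspb1 is added as a small heat shock gene with the motif at 2 places. The capitals mark the heat shock units. Each line runs 5' to 3' on the strand of the gene.
Hspa1a and Hspa1b: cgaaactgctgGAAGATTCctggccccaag
Hsph1: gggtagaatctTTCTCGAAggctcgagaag
Dnaja1: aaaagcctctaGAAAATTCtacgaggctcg
Hspb1: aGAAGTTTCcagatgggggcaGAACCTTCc
Dnajb6: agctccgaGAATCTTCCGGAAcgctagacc
Hspe1: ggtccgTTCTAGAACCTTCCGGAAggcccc
These windows lie at chr17:34972242-34972271 (Hspa1a, minus strand), chr17:34959324-34959353 (Hspa1b, minus), chr5:149636351-149636380 (Hsph1, minus), chr4:40722333-40722362 (Dnaja1, plus), chr5:135887801-135887830 (Hspb1, plus), chr5:29735844-29735873 (Dnajb6, plus) and chr1:55088053-55088082 (Hspe1, plus). All lie upstream of the start used, and by the GENCODE annotation some also overlap exons: the window of Hspe1 an exon of Hspd1, that of Hsph1 an exon of Hsph1, that of Dnaja1 exons of Dnaja1 and Gm6297, and that of Dnajb6 exons of Dnajb6 and Gm5129. Hspd1 and Hspe1 are transcribed in opposite directions and their annotated spans overlap by 112 bases. A match of letters is a description of the sequence and not evidence of binding.

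Hspa1a and Hspa1b, the stress-inducible HSP70 genes, are intronless neighbours 9951 bases apart on chromosome 17. Their upstream sequences are given below because they are almost the same, with 149 of the last 150 bases before the start identical and 247 of 250.
Hspa1a: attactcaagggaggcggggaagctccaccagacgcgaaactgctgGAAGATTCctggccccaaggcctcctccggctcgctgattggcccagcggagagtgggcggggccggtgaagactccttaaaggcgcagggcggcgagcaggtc
Hspa1b: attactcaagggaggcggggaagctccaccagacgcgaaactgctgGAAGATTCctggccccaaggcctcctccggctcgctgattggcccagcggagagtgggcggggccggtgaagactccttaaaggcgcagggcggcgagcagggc
These lie at chr17:34972157-34972306 and chr17:34959239-34959388 on the minus strand. The annotated transcripts were 84.3% identical over their length but 46.8% over their last 500 bases, where 3' reads fall. Reads from the shared part of the transcripts could be assigned to either gene or discarded, so the division between them is uncertain.

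In smooth muscle most cytosolic chaperones were at least 1.5-fold lower with sunitinib than vehicle, while most small heat shock and ER members were not. There were 15 lower members among the 38, where 4.75% of the 13885 measured genes were lower, and 0 higher members, where 7.27% of genes were higher. The median log2 ratio of the members was -0.33, against 0.09 over all genes. The ratio was below 0 for 30 members. By role, 12 of 21 cytosolic members were lower with a median of -0.62, as were 0 of 6 small heat shock genes (-0.06), 1 of 5 ER members (-0.24), 2 of 4 mitochondrial members (-0.40) and 0 of 2 heat shock factors (-0.14). The summed level of the 21 cytosolic members was 12431 CPM with vehicle, 8184 with sunitinib and 4205 with sunitinib plus Yoda1. In the same order the small heat shock genes summed to 7233, 5456 and 1706 CPM, most of it Hspb1 with vehicle and sunitinib. Without Hspb1 the other 5 small heat shock genes summed to 1460, 1394 and 825.6 CPM. The ER members summed to 1814, 1606 and 1025 CPM.

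**Figure D1:**
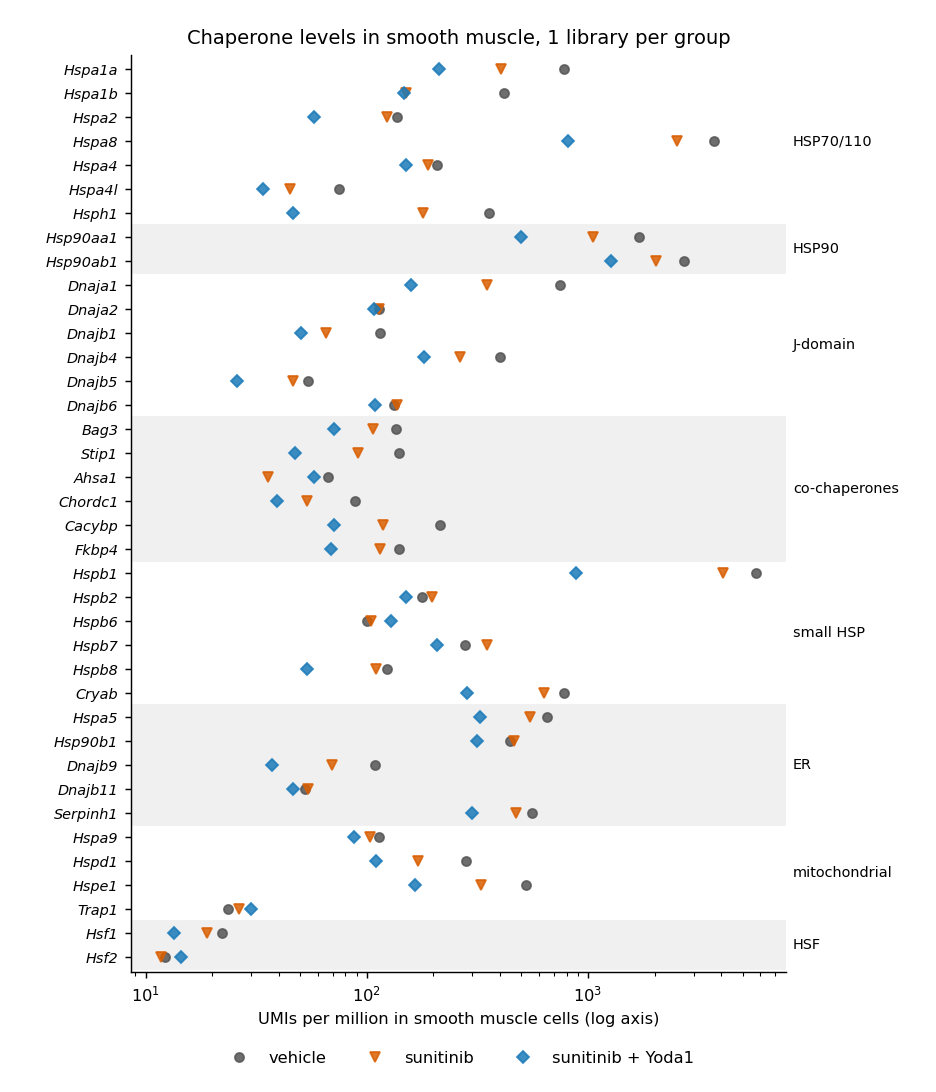
CPM of each of the 38 members in smooth muscle cells (log axis), 1 point per library, with members grouped by role. Hspa1b stood at 416.7 with vehicle, 149.8 with sunitinib and 146.5 with sunitinib plus Yoda1, whereas Dnaja2 stood at 113.2, 113.2 and 107.3.

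Among the HSP70 and HSP110 genes, 4 of 7 were lower and all 7 ratios were below 0. Hspa1b had 28687 UMIs (416.7 CPM) with vehicle and 9346 UMIs (149.8 CPM) with sunitinib, a log2 ratio of -1.48 (interval -1.51 to -1.44), or 2.78-fold lower. It was the member with the lowest ratio, at the 0.56 percentile of all measured genes. Its neighbour Hspa1a had a smaller difference, with 775.6 and 405.9 CPM (log2 ratio -0.93, interval -0.96 to -0.91). Hsph1, an HSP110 that exchanges nucleotide on HSP70, stood at 355.8 and 180.1 CPM (-0.98). Hspa4l, another HSP110 gene, stood at 74.96 and 44.9 CPM (-0.74). Hspa8, the constitutive HSP70, stood just short of the 1.5-fold limit at 3706 and 2517 CPM (-0.56). The highest ratio of the family belonged to Hspa4, an HSP110 gene with 14234 UMIs (206.7 CPM) and 11822 UMIs (189.5 CPM), at -0.13 (interval -0.16 to -0.09). Hspa2, best known from male germ cells, was close to it at -0.14.

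The cytosolic HSP90 genes differed in the same order. Hsp90aa1, the stress-inducible form, had 117023 UMIs (1699.7 CPM) with vehicle and 65537 UMIs (1051 CPM) with sunitinib (log2 ratio -0.69, interval -0.71 to -0.68). Hsp90ab1, the constitutive form, had 186542 UMIs (2709 CPM) and 126565 UMIs (2029 CPM), at -0.42 (interval -0.43 to -0.41). The intervals of the 2 ratios did not overlap.

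J-domain members ranged widely. Dnaja1, which serves HSP70 in the cytosol, had 51700 UMIs (750.9 CPM) with vehicle and 21707 UMIs (348.0 CPM) with sunitinib, a log2 ratio of -1.11 (interval -1.13 to -1.09). Dnajb1, the partner of inducible HSP70 in disaggregation, stood at 114.4 and 65.4 CPM (-0.81). Dnajb4, a relative of Dnajb1, stood at 398.8 and 262.6 CPM (-0.60). The other members were near 0: Dnajb5 was at -0.22 and Dnaja2 at 0.00. Dnajb6, which suppresses protein aggregation, had the highest ratio, with 9116 UMIs (132.4 CPM) and 8531 UMIs (136.8 CPM), at 0.05 (interval 0.00 to 0.09). Dnajb6 is also a member with 3 heat shock units in the sequence printed above.

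All 6 co-chaperones were below 0 and 4 were lower. Ahsa1, which speeds up the ATPase of HSP90, had 4575 UMIs (66.5 CPM) with vehicle and 2221 UMIs (35.6 CPM) with sunitinib, a log2 ratio of -0.90 (interval -0.97 to -0.83). Cacybp stood at 213.6 and 118.1 CPM (-0.85), and Chordc1, a partner of HSP90, at 88.7 and 53.8 CPM (-0.72). Stip1, which links HSP70 to HSP90, stood at 139.6 and 91.1 CPM (-0.62). Bag3, a nucleotide exchange factor that directs clients to autophagy in muscle, stood at 136.2 and 106.5 CPM (-0.36). Fkbp4, an immunophilin of steroid receptor complexes, had the highest ratio, with 9659 UMIs (140.3 CPM) and 7180 UMIs (115.1 CPM), at -0.29 (interval -0.33 to -0.24). Both of these missed the 1.5-fold limit.

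The small heat shock genes went in both directions. Hspb1 (HSP27), an actin-binding member, had 397460 UMIs (5773 CPM) with vehicle and 253373 UMIs (4062 CPM) with sunitinib, a log2 ratio of -0.51 (interval -0.51 to -0.50). Cryab (alpha B-crystallin), which protects desmin and actin filaments, stood at 779.4 and 631.4 CPM (-0.30), and Hspb8, which works with Bag3, at 124.0 and 110.01 CPM (-0.17). On the other side of 0, Hspb7 had 19172 UMIs (278.5 CPM) and 21870 UMIs (350.6 CPM), the highest ratio of all 38 members at 0.33 (interval 0.30 to 0.36). Hspb2 stood at 177.4 and 197.4 CPM (0.15), and Hspb6 (HSP20), linked to relaxation of smooth muscle, at 100.5 and 104.5 CPM (0.06). Hspb2 and Cryab are transcribed in opposite directions and overlap by 1030 bases in the annotation (chromosome 9), so reads in the shared part could belong to either unless strand was used in counting, which the sources used here do not state.

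ER members lay close to 0 apart from Dnajb9. This J-domain protein of the unfolded protein response had 7462 UMIs (108.4 CPM) with vehicle and 4350 UMIs (69.7 CPM) with sunitinib, at -0.64 (interval -0.69 to -0.58). Hspa5 (BiP), the HSP70 of the ER, stood at 649.4 and 549.3 CPM (-0.24), and Serpinh1, the collagen chaperone, at 560.4 and 470.8 CPM (-0.25). Dnajb11 was at 0.03. Hsp90b1, the HSP90 of the ER, had the highest ratio with 30522 UMIs (443.3 CPM) and 28837 UMIs (462.3 CPM), at 0.06 (interval 0.04 to 0.08).

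The mitochondrial chaperonin went with the cytosolic members. Hspd1, the chaperonin subunit, had 19325 UMIs (280.7 CPM) with vehicle and 10655 UMIs (170.8 CPM) with sunitinib, at -0.72 (interval -0.75 to -0.68). Hspe1, its lid, stood at 523.4 and 328.2 CPM (-0.67). In the run of heat shock units printed for Hspe1, both motifs of 3 units overlap, so the run is longer than 3. This run also lies upstream of 1 of the 2 listed Hspd1 start sites, a start inside the annotated gene. The window of the other Hspd1 start held no match. Hspa9, the mitochondrial HSP70, stood at 113.6 and 103.4 CPM (-0.14). Trap1, the mitochondrial HSP90, had 1616 UMIs (23.5 CPM) and 1647 UMIs (26.4 CPM), at 0.17 (interval 0.07 to 0.27), and its annotated span overlaps Dnase1 on the other strand. Of the transcription factors, Hsf1 had 1522 and 1181 UMIs (22.1 and 18.9 CPM), at -0.22 (interval -0.33 to -0.11). Hsf2 had 839 and 731 UMIs (12.2 and 11.7 CPM), at -0.06 (interval -0.20 to 0.09), an interval that includes 0.

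**Figure D2:**
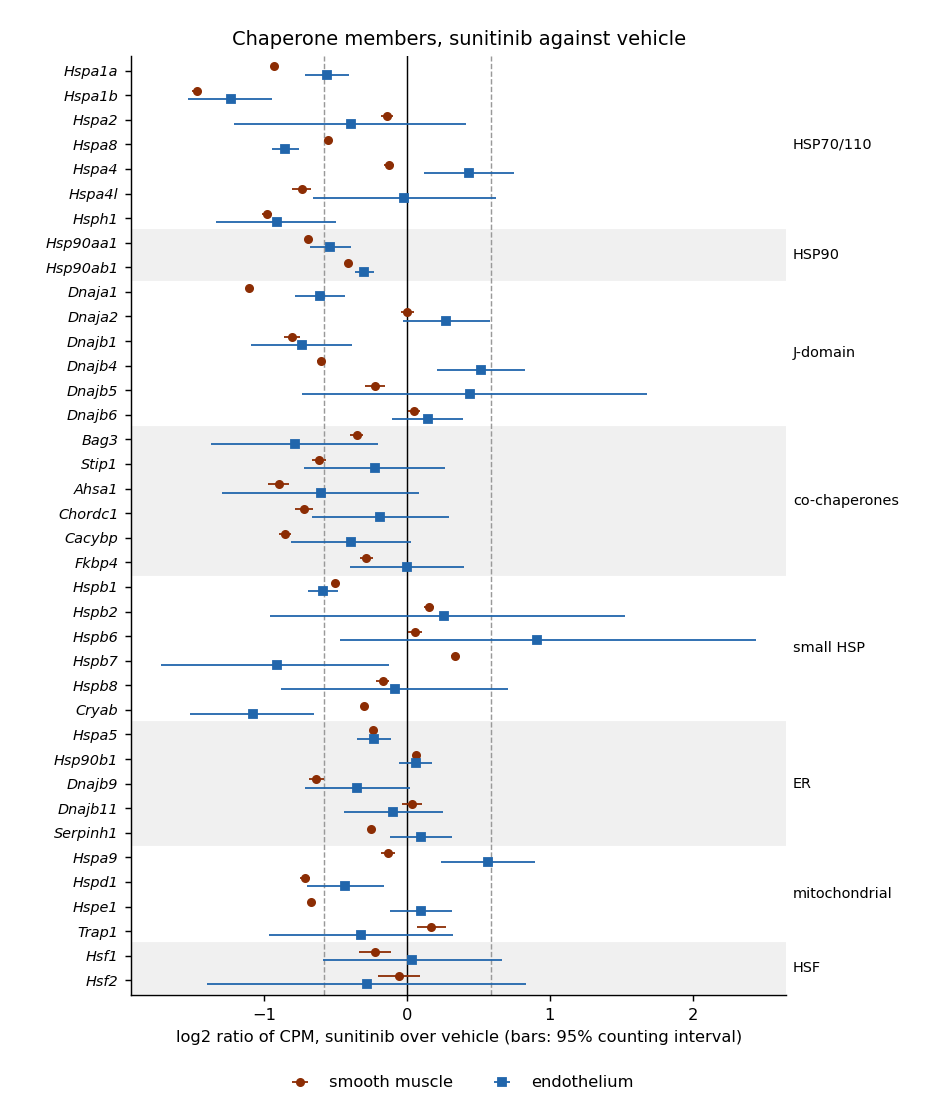
Log2 ratio of CPM for sunitinib over vehicle for each member, in smooth muscle (circles) and endothelium (squares), with exact 95% counting intervals as bars and the 1.5-fold limits dashed. In smooth muscle the ratios run from -1.48 (Hspa1b) to 0.33 (Hspb7), and intervals are wider in endothelium, which had 150 and 184 cells.

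The upstream heat shock motif was present in 7 of the 14 members that were lower in smooth muscle and had an entry in the promoter table, and in 4 of the other 17. Hspa1a, Hspa1b, Hsph1, Dnaja1, Dnajb4, Hspd1 and Hspe1 were the 7. They are not separate sites throughout, since Hspd1 and Hspe1 share theirs and Hspa1a and Hspa1b have nearly the same sequence. Several members with low ratios, among them Dnajb1, Ahsa1, Cacybp and Chordc1, had no match within these 250 bases. These counts used the differences described above and stand as a description.

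As groups, other protein-folding genes differed less. The 8 subunits of the cytosolic chaperonin TRiC all had ratios below 0 in smooth muscle. Their median log2 ratio was -0.10, and none was 1.5-fold lower. Among 17 other HSP70 and HSP90 co-chaperones, with a median of 0.11, 1 was lower and 1 was higher. St13, which binds HSP70, stood at 181.3 CPM with vehicle and 114.2 with sunitinib (-0.67). Fkbp5, an HSP90 immunophilin induced by glucocorticoids, stood at 28.9 and 82.3 CPM (1.51). The 17 further genes of ER folding and the unfolded protein response had a median of 0.02, with Ddit3 alone lower at -0.88. Mitochondrial folding and protease genes (8) had a median of 0.04 with none past the limit. Ubiquitin and proteasome genes (12) had a median of 0.06, with the autophagy receptor Sqstm1 alone lower at -0.80. The 10 reference genes had a median of 0.09.

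Immediate early genes, which tissue dissociation is known to induce along with heat shock genes, moved with the difference in smooth muscle. All 13 of them had ratios below 0, with a median of -0.40, and 4 were at least 1.5-fold lower, among them Egr1 at 2302 CPM with vehicle and 1288 with sunitinib (-0.84). Within a library, the cytosolic HSP70, HSP90 and J-domain share of a cell had a Spearman correlation with its immediate early share of 0.01 over 3595 vehicle cells and of 0.11 over 3796 sunitinib cells. The cells of a library share its digestion, and both shares have the UMI total of the cell as denominator. The part of dissociation in the difference was not tested. Median UMIs per smooth muscle cell were 16875 and 16254, and median mitochondrial shares 6.36% and 6.95%. The 4 contractile markers that define the class summed to 41002 CPM with vehicle and 47026 with sunitinib. A contractile share of at least 5% was reached by 575 vehicle and 1377 sunitinib cells. The 5 fibroblast markers summed to 473.9 and 443.7 CPM, most of it Col1a1.

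The lower level was spread over most smooth muscle cells. The 15 cytosolic HSP70, HSP110, HSP90 and J-domain members together held a median of 1.04% of the UMIs of a cell with vehicle, with a lowest decile of 0.654% and a highest of 1.80%. With sunitinib the median was 0.674%, and the deciles were 0.462% and 1.11%. The distributions overlapped, with 87.4% of sunitinib cells under the vehicle median, 46.3% under the lowest vehicle decile and 1.63% above the highest. Within the vehicle library this share had a Spearman correlation of 0.75 with the small heat shock share of the same cell, of 0.67 with that of the mitochondrial members and of 0.11 with that of the ER members, over 3595 cells. With sunitinib these were 0.50, 0.41 and 0.09 over 3796 cells. In these 2 libraries cells thus varied together in cytosolic, small and mitochondrial chaperones more than in ER chaperones. Over the 64 cells of the third library the correlations were 0.06, 0.11 and -0.01 in the same order. The UMI total of the cell is the denominator of each share. Most small heat shock UMIs of vehicle and sunitinib smooth muscle were those of Hspb1. Smooth muscle was also divided by posterior Hox genes, which mark position along the body. Vehicle cells with and without a posterior Hox UMI had 12408 and 12461 CPM of cytosolic members, and sunitinib cells 8230 and 8106. Small heat shock genes stood at 7357 and 7069 CPM with vehicle and at 5540.0 and 5313 with sunitinib. In the third library, with 29 and 35 such cells, the cytosolic members stood at 4249 and 4167 CPM, the small heat shock genes at 1989 and 1458 and Hspb1 at 1119 and 670.6.

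**Figure D3:**
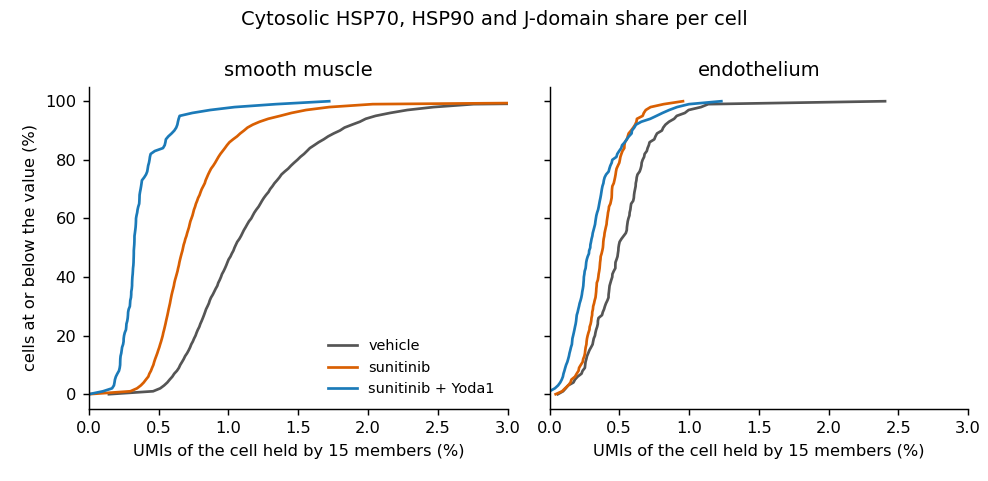
Share of the UMIs of a cell held by the 15 cytosolic HSP70, HSP110, HSP90 and J-domain members (horizontal axis, %, drawn up to 3%) against the percentage of cells at or below that share, for each library in smooth muscle and endothelium. In smooth muscle the sunitinib curve lies left of the vehicle curve between the deciles, with medians of 0.674% and 1.04%.

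The share of smooth muscle cells with a UMI followed the same pattern once each cell was thinned to 2000 UMIs, with shallower cells left out. Hspa1b was detected in 42.1% of vehicle cells, 18.2% of sunitinib cells and 14.8% of sunitinib plus Yoda1 cells. Without thinning the first of these shares were 88.3% and 59.1%. Dnaja1 was detected in 72.2%, 44.6% and 21.3% of thinned cells and Hsph1 in 45.6%, 27.5% and 11.5%. Hspb7 went the other way between vehicle and sunitinib, with 39.8% and 50.01%. T cells of the third library, at the same depth, had Hspa1b in 1.67% and Hspb7 in 0 of 718 cells, which allows a share with a UMI of up to 0.418% at this depth and says nothing of the share of cells that express it.

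Endothelium showed part of the same difference, with fewer cells and wider intervals. With sunitinib, 10 of 38 members were lower, where 6.5% of 9216 measured genes were lower, and 1 was higher, where 12.3% of genes were higher. The median ratio of the members was -0.26 against 0.11 over all genes. With each cell thinned to 2000 UMIs, 25 members were measured and their median was 0.05. Thinning also left out shallower cells, with 138 vehicle and 165 sunitinib cells remaining. The part of depth in this change of sign was not tested. With all UMIs, cytosolic members had 7 lower of 21 and a median of -0.39. Their summed level was 6241 CPM with vehicle and 4565 with sunitinib, whereas ER members summed to 1729 and 1641 CPM and mitochondrial members to 446.0 and 450.7 CPM. Members that were lower in both classes numbered 5, namely Hspa1b, Hsph1, Dnaja1, Dnajb1 and Ahsa1. In endothelium Hspa1b had 300 UMIs (182.3 CPM) with vehicle and 145 UMIs (77.3 CPM) with sunitinib, at -1.24 (interval -1.53 to -0.95). Hsph1 had 129 and 78 UMIs (78.4 and 41.6 CPM), at -0.91 (interval -1.34 to -0.50). For both genes the interval stayed below the 0 line, as it did for Dnaja1, with 619 and 462 UMIs (376.1 and 246.4 CPM), at -0.61 (interval -0.79 to -0.43). Dnajb1 had 167 and 114 UMIs (101.5 and 60.8 CPM), at -0.74 (interval -1.10 to -0.39), but at 0.64 with each cell thinned to 2000 UMIs. Ahsa1 had 44 and 33 UMIs (26.7 and 17.6 CPM), at -0.60, and its interval of -1.30 to 0.08 includes 0. In smooth muscle the ratios of these 5 genes ran from -1.48 to -0.81. Over all alternatives tried, the calls of Hspa1b and Hspa8 held in endothelium. Ahsa1 kept its call in those where it had enough UMIs to be measured, which leaves out the minimum of 100 UMIs and the thinned cells, and the other 7 lower members each lost theirs in at least 1. The 13 immediate early genes had a median of -0.19 here, with 2 lower.

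Some members were past the limit in 1 class alone, which is not a test of a difference between classes. Past it in endothelium alone were Hspa8, at 1500 and 830.5 CPM (-0.85), Bag3, at 39.5 and 22.9 CPM (-0.78), Hspb1, at 1048 and 697.1 CPM (-0.59), Cryab, at 79.0 and 37.3 CPM (-1.08), and Hspb7, at 23.1 and 12.3 CPM (-0.91). Hspa8 and Hspb1 were close to the limit in smooth muscle too. Hspb6, the 1 higher member, rested on 7 and 15 UMIs and its interval of -0.47 to 2.45 includes 0. Smooth muscle transcripts were present in the endothelial class, with the 4 contractile markers at 2093 CPM with vehicle and 2605 with sunitinib, or 5.10% and 5.54% of their smooth muscle level. Endothelial levels of Hspb2 were 3.77% and 4.05% of those in smooth muscle, those of Hspb6 4.23% and 7.65%, those of Hspb7 8.29% and 3.50% and those of Cryab 10.1% and 5.91%. The contractile markers did not move as 1 group. In endothelium Acta2 stood at 1024 CPM with vehicle and 1271 with sunitinib and Tagln at 784.4 and 1192, whereas Myh11 stood at 202.3 and 104.5 and Cnn1 at 82.02 and 37.3. Hspb7 and Cryab were thus lower together with Myh11 and Cnn1, and the part of carried transcripts in their endothelial levels was not tested. Hspb1, in contrast, stood at 18.2% and 17.2%. A limit of less than 0.2% contractile UMIs, chosen after the data were seen, left 130 vehicle and 132 sunitinib endothelial cells. Of 34 members measured in them, 6 were lower and 3 higher. The share of all genes past the 1.5-fold limit was not computed for these cells, so the counts have no background. Per cell of the whole endothelial class, the 15-member share had medians of 0.494% and 0.382%, and 78.3% of sunitinib cells were under the vehicle median. Fkbp5 was higher here as well, at 36.5 and 80.0 CPM (1.13).

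**Figure D4:**
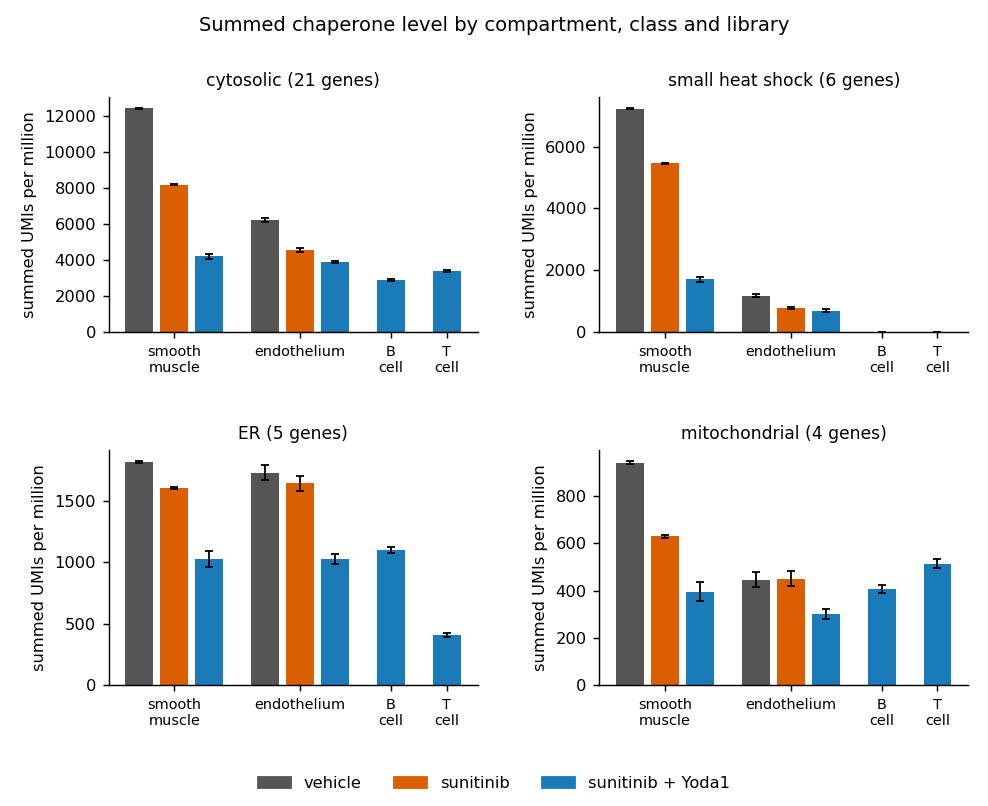
Summed CPM of the cytosolic, small heat shock, ER and mitochondrial members (vertical axes, from 0) by cell class and library (bars), with exact 95% counting intervals as error bars; B and T cells come from the third library alone. Cytosolic members in smooth muscle stood at 12431, 8184 and 4205 CPM, and ER members in endothelium at 1729, 1641 and 1023 CPM.

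Sunitinib plus Yoda1 was compared with sunitinib alone, so both this and the comparison above use the sunitinib library, and a high or low value there enters both. In smooth muscle, with 64 cells in the third library, there were 20 lower members, where 10.1% of 13044 genes were lower, and 1 higher member, where 37.9% of genes were higher. The median of the members was -0.64 and that of all genes 0.29. Genes with long introns had higher ratios in this comparison, with a median of 0.94 in the longest of 5 equal groups by intron length and 0.03 in the shortest, whereas these medians were 0.05 and 0.11 between sunitinib and vehicle. Members mostly have short introns, and 15 of them were in the shortest group. These 15 had a median of -0.76, and 13 of them were below the median of that group. Whether introns were counted in the third library is not stated in the sources used here, and its part was not tested.

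Levels in smooth muscle ran from vehicle through sunitinib to sunitinib plus Yoda1 as follows. Hspb1 stood at 5773, 4062 and 880.3 CPM, and its log2 ratio to sunitinib of -2.21 (interval -2.30 to -2.11) was the lowest among the members. Hspa8 stood at 3706, 2517 and 808.1 CPM (-1.64), and Hsph1 at 355.8, 180.1 and 46.4 CPM (-1.96). For these constitutive and inducible genes alike the third library was the lowest. Dnaja1 stood at 750.9, 348.0 and 157.9 CPM (-1.14), Hsp90aa1 at 1699.7, 1051 and 496.4 CPM (-1.08) and Cryab at 779.4, 631.4 and 284.8 CPM (-1.15). Hspa1b, in contrast, differed little between the last 2 libraries, at 149.8 and 146.5 CPM (-0.03, interval -0.28 to 0.21), while Hspa1a stood at 405.9 and 212.6 CPM (-0.93). Ahsa1 was the 1 higher member, at 35.6 and 57.8 CPM (0.70, interval 0.29 to 1.08), and Hspb6 stood at 104.5 and 129.0 CPM (0.30). Over 11 alternatives there were 17 to 28 lower members, and the calls of 8 of the 21 members held in all, namely Hspa1a, Hspa2, Hspa8, Hsph1, Hsp90aa1, Hsp90ab1, Dnaja1 and Hspb1. Ahsa1 was at 0.46 with TMM factors, within the limit, and Cryab at -0.06 among the 5 cells of the third library with a contractile share of at least 5%. The immediate early genes were lower with it as well, 11 of 13 with a median of -1.32, and the TRiC subunits had a median of -0.52. Their part was not tested.

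In endothelium 37 members were measured in the same comparison, of which 9 were lower, where 19.8% of 10490 genes were, and 4 higher, where 36.9% were. The members had a median of -0.26, and all genes one of 0.23. Cytosolic members were spread about 0, with a median of 0.10. Bag3 had 43 UMIs (22.9 CPM) with sunitinib and 170 UMIs (73.0 CPM) with sunitinib plus Yoda1, at 1.67 (interval 1.18 to 2.19), and 65 UMIs (39.5 CPM) with vehicle. Ahsa1 stood at 17.6 and 36.1 CPM (1.04), Dnaja1 at 246.4 and 402.5 CPM (0.71) and Chordc1 at 40.5 and 64.9 CPM (0.68). With vehicle these 4 co-chaperones of HSP70 or HSP90 stood at 39.5, 26.7, 376.1 and 46.2 CPM. The call of Bag3 held in every alternative tried. With TMM factors Dnaja1 was at 0.53 and Chordc1 at 0.50, and with thinned cells Ahsa1 was at 0.10, all within the limit. On the lower side, the ER chaperones Hspa5 and Hsp90b1 stood at 605.9 and 281.8 CPM (-1.10) and at 690.7 and 431.3 CPM (-0.68). The chaperonin lid Hspe1 stood at 203.2 and 97.9 CPM (-1.05), Hspa1a at 329.1 and 117.3 CPM (-1.49) and Dnajb4 at 125.9 and 25.8 CPM (-2.29). Hspb6, Hspb7, Hspb8 and Cryab made up the other 4. The carried contractile transcripts differed too, at 2605 and 172.7 CPM, and 11 of 13 immediate early genes were lower, with a median of -1.72. By intron length, all genes had a median of -0.36 in the shortest group and 1.27 in the longest, and the 15 members in the shortest had one of -0.39, with 8 of them below the group. The endothelial markers themselves also differed in level between the 2 libraries, as given above. The part of these differences was not tested. The division of Hspa1a from Hspa1b, which stood at 77.3 and 97.9 CPM (0.34), is uncertain for the reason given above.

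Smooth muscle had more chaperone transcript per UMI than endothelium in the same library, where both classes share their processing. With vehicle, endothelium had 26 lower members of 38, where 22.5% of 13215 genes were lower, and 1 higher member, where 34.2% of genes were higher. With sunitinib these counts were 23 and 0, where 21.2% and 34.5% of genes were lower and higher. With sunitinib plus Yoda1 they were 13 and 3, against 20.4% and 37.1%. The 3 were Dnaja1, Chordc1 and Hsf1, at 254.9%, 165.4% and 176.1% of their smooth muscle level. Cytosolic members summed to 12431 CPM in smooth muscle and 6241 in endothelium with vehicle, and to 8184 and 4565 with sunitinib. With sunitinib plus Yoda1 these sums were close, at 4205 and 3894 CPM. The difference was widest for the small heat shock genes, whose sums were 7233 CPM in smooth muscle and 1178 in endothelium with vehicle, 5456 and 778.7 with sunitinib and 1706 and 696.8 with sunitinib plus Yoda1. The sums of the ER members were closer, at 1814 and 1729 CPM with vehicle, 1606 and 1641 with sunitinib and 1025 and 1023 with sunitinib plus Yoda1, but they joined members that went both ways. Serpinh1 in endothelium stood at 33.8%, 43.0% and 67.8% of its smooth muscle level in the 3 libraries and was past the limit in the first 2, while Hsp90b1 stood at 149.5%, 149.4% and 136.6%. Dnajb11, an ER J-domain protein, was the 1 member higher in vehicle endothelium, at 83.8 CPM against 52.8 in smooth muscle. Hspb1 was the small heat shock gene with most endothelial signal relative to smooth muscle, at 76.1% of the smooth muscle level in the third library, where the contractile markers stood at 0.483%. Hspb2 and Hspb7 there had 3 UMIs each in 359 endothelial cells, and 146 and 201 UMIs in 64 smooth muscle cells.

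**Figure D5:**
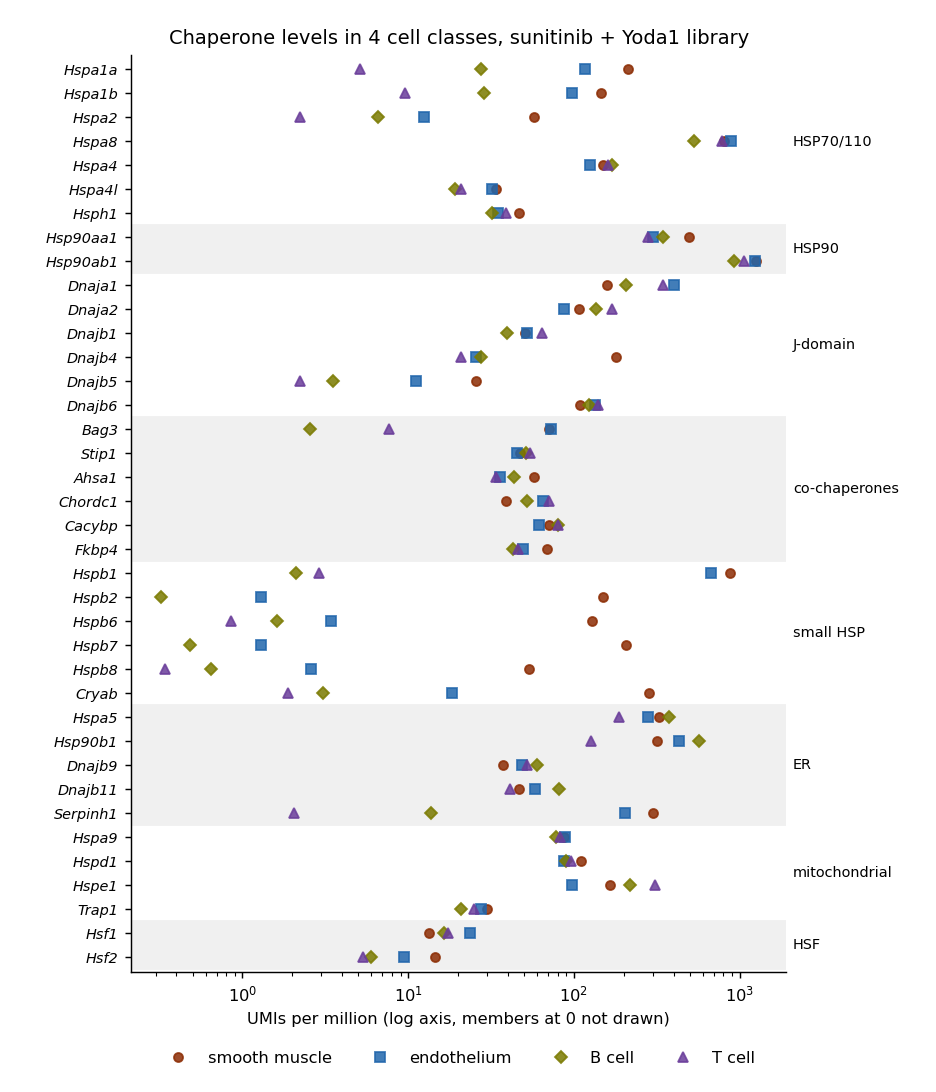
CPM (log axis) of each member in smooth muscle, endothelium, B cells and T cells of the sunitinib plus Yoda1 library, where all 4 classes were present. Serpinh1 ran from 300.3 in smooth muscle to 2.06 in T cells, whereas Hspa4 lay between 125.0 and 169.2 in all 4 classes.

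Lymphocytes of the third library gave a contrast within 1 library, with 1088 B cells and 729 T cells. Of 34 measured members, 12 were lower in B cells than in endothelium, where 35.8% of genes were, and 2 were higher, where 25.1% were. T cells gave the same counts of 12 and 2, where 40.4% and 21.2% of genes were lower and higher, so both counts of lower members were close to the background. The small heat shock genes summed to 8.21 CPM in B cells (51 UMIs) and 6.002 in T cells (35 UMIs), against 696.8 in endothelium. Hspb1 had 13 UMIs in B cells and 17 in T cells (2.09 and 2.92 CPM), against 1559 in endothelium (669.7 CPM). Serpinh1 stood at 13.7 CPM in B cells, 2.06 in T cells and 203.6 in endothelium. The inducible Hspa1a stood at 27.5, 5.14 and 117.3 CPM and Bag3 at 2.58, 7.72 and 73.0 CPM in the same order. The constitutive Hsp90ab1 and Hspa8 were closer, at 925.3, 1063 and 1235 CPM and at 528.2, 786.2 and 894.4 CPM. Inducible members were not all far apart. Hsph1 stood at 32.2, 39.1 and 34.8 CPM and the stress-inducible Hsp90aa1 at 347.2, 280.4 and 300.7. Hspa2 stood at 6.60, 2.23 and 12.5 CPM. Hspe1 went the other way, at 217.6 and 310.2 CPM in B and T cells and 97.9 in endothelium. Between the lymphocyte classes, 9 of 34 measured members were higher in B cells, where 26.1% of genes were, so this count is near the background, and 3 were lower, where 17% were. ER members were 4 of the 9, among them Serpinh1. Markers of other types differed between these classes as well, with 182.9 CPM in B cells and 14.1 in T cells for the 5 fibroblast markers (Dcn at 149.1 and 10.5), 114.5 and 40.6 for the 5 macrophage markers, and 6628 and 13969 for red cell markers. Their part in the differences was not tested. Hsp90b1 stood at 572.7 CPM in B cells and 126.5 in T cells (log2 ratio 2.18, interval 2.06 to 2.29), Hspa5 at 373.6 and 187.6 CPM (0.99) and Dnajb11 at 81.6 and 41.0 CPM (0.99). Of the 17 further ER folding genes, 11 were higher in B cells and 1 was lower. Bag3, Dnaja1 and Dnajb1 were the 3 members lower in B cells than in T cells.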

How the data were processed

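The authors deposited 1 matrix of raw UMI counts per library, made per the file headers with Cell Ranger 6.0.0 (vehicle, sunitinib) and 7.1.0 (sunitinib plus Yoda1). The submitters' processing notes name Cell Ranger, Seurat and build mm10. Intron counting and the gene annotation are not given in the sources used here. Totals were 73901343, 66769480 and 28364203 UMIs. Barcodes left out by the cell limits numbered 544, 358 and 1988. Endothelial markers were Pecam1, Cdh5, Egfl7, Ptprb and Vwf. B and T cells needed at least 2 markers of their type, and cells meeting rules of more than 1 class (20, 22 and 24) entered none. Doublets were not removed. Counts were summed per class and library and scaled to CPM with Python 3.11.15, numpy 2.4.6 and scipy 1.17.1. Ratios carry exact conditional binomial intervals, and a count of 0 was set to 3. For TMM and median-of-ratios scaling, edgeR 4.0.16 and DESeq2 1.42.0 gave size factors alone, and no test was run with either. Coordinates are those of GENCODE vM21 on GRCm38, and promoters those of RefSeq on GRCm38.p6. The scripts were tested on simulated data. All 38 members are named, with counts and intervals for the lowest and highest ratio of each role and for members lower in both classes. Members, roles and comparison lists were chosen with earlier results of these data known.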

Additional observations from a re-analysis of the deposited data

Results flagged for a closer look

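For 4 members the ratio of sunitinib to vehicle lay on opposite sides of 0 in smooth muscle and endothelium, with counting intervals that both left out 0. The difference between the classes was not tested, since each rests on 1 library per group. Dnajb4 had log2 ratios of -0.60 in smooth muscle and 0.51 in endothelium. Hspb7 had 0.33 and -0.91, and its endothelial value turned to 0.000365 when cells meeting 2 class rules were kept and to 0.46 without cells carrying markers of other types. Hspa9 had -0.14 and 0.56, and Hspa4 had -0.13 and 0.43.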

How the results depend on the processing

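No paired analysis was possible because each group is 1 library, and no library could be left out. In smooth muscle, sunitinib against vehicle gave 13 to 17 lower members and 0 higher over 13 alternatives, and 11 of the 15 calls held in all of them. The median log2 ratio of the members moved to -0.47 with a contractile share of at least 5%. TMM and median-of-ratios factors shifted ratios by -0.09 and -0.09 there, by -0.11 and -0.11 in endothelium, and for sunitinib plus Yoda1 against sunitinib by -0.23 and -0.24 in smooth muscle and by -0.18 and -0.20 in endothelium.

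In endothelium, sunitinib against vehicle gave 0 higher members with a minimum of 100 UMIs and with at most 5% mitochondrial UMIs. It gave 0 with cells that meet 2 class rules kept and 2 as a mean over cells. With cells thinned to 2000 UMIs it gave 4 higher and 5 lower of 25 measured, whose median log2 ratio was 0.05. With cells under 0.2% contractile UMIs, an alternative chosen after seeing the data, it gave 3 higher and 6 lower of 34 measured. Hspb6 turned to -0.47 as a mean over cells. Dnajb1 turned to 0.64 and Cryab to 0.19 with thinning, and Cryab to 0.32 under 0.2% contractile UMIs. Hspb7 turned to 0.000365 with cells of 2 class rules kept and to 0.46 without cells with markers of other types. The cause was not tested.

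For sunitinib plus Yoda1 against sunitinib, smooth muscle gave 0 higher members under TMM, median-of-ratios and without cells with markers of other types, 2 with thinning and with at most 5% mitochondrial UMIs, and 3 with a contractile share of at least 5%, and Dnajb5 turned to 0.18 with thinning. Endothelium gave 2 higher under TMM and median-of-ratios, 8 without cells with markers of other types, and 14 lower with cells of 2 class rules kept. The cause was not tested.

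Endothelium against smooth muscle gave, for higher members, 2 as a mean over cells and 0 with thinning or with cells of 2 class rules kept (vehicle), 2 as a mean over cells and 2 with at most 5% mitochondrial UMIs (sunitinib), and 8 with at most 5% mitochondrial UMIs (sunitinib plus Yoda1). With thinning, B and T cells each had 7 lower members than endothelium, and B cells 5 higher than T cells. B cells had 4 higher than endothelium with at most 5% mitochondrial UMIs, and 5 lower than T cells as a mean over cells. The share of smooth muscle cells with Hspa1b was 88.3% and 59.1% (vehicle, sunitinib) with all UMIs and 26.6% and 11.7% at 1000 UMIs a cell. The endothelial log2 ratio of per-cell medians was -0.52 with at most 5% mitochondrial UMIs. The 64 smooth muscle cells of the third library and the low UMI counts of small heat shock genes in endothelium limit what depth can show.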
